A study of Mus musculus with 2 samples.

Results

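The genes described here encode laminins, proteoglycans and other glycoproteins of the extracellular matrix, without the collagens. They were taken by name as 45 genes whose Ensembl identifiers match the corresponding mouse symbols, and all 45 were found among the 55401 genes of both expression tables. The tables come from polyA-selected RNA sequencing of the pituitary of mouse embryos at E12.5, in embryonic days, the stage of Rathke's pouch, in which oral ectoderm is forming the anterior lobe beside the infundibulum, vessels and mesenchyme. A wild-type library was set beside a library from Dyrk2-/- mice, which lack a protein kinase, within a study whose title concerns primary cilia, cell identity and vessel growth. There was 1 library per genotype, and the sources used here do not give the number of embryos in each, the mouse strain or the construction of the mutant allele. Differences are therefore described without any test, since nothing measures the spread between samples.

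The extracellular matrix of an embryonic organ has several layers. Laminins are cross-shaped trimers of an alpha, a beta and a gamma chain that polymerise under epithelium and around vessels, where nidogens and the proteoglycans perlecan and agrin tie them to type IV collagen. Interstitial matrix between mesenchymal cells is built on fibronectin and fibrillin fibres, with hyaluronan-binding and small leucine-rich proteoglycans filling and ordering it, and matricellular proteins such as thrombospondins and periostin tune how cells attach. In the early pituitary a laminin-rich basement membrane separates the pouch epithelium from the mesenchyme around it.

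None of the 11 basement membrane genes counted here differed by 1.5-fold between the libraries, and 11 of the 26 other matrix genes did, in both directions. Levels are given in FPKM, sequenced fragments per kilobase of exon per unit of library size, which allows genes of different length to be compared. A level of 1 FPKM or more in either library was reached by 37 of the 45 genes, and by 14000 genes in all. A gene is counted as higher or lower where the ratio of its values, each raised by 0.5 FPKM, was at least 1.5-fold. By that rule 7 of the 37 were lower in the knockout library and 4 were higher, where 4.57% of the 14000 genes were lower and 2.07% higher, and 93.4% were within 1.5-fold, so that 11 basement membrane genes within that range is near the share of all genes. The median log2 ratio of knockout over wild type was -0.07 for the 37 genes and -0.02 for the 14000. The lower genes were Matn4, Mgp, Fmod, Thbs2, Postn, Dcn and Bgn, and the higher genes were Ogn, Fn1, Efemp1 and Vcan. Summed over all 45 genes, the level was 674 FPKM for wild type and 690 FPKM for knockout.

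The 8 genes under 1 FPKM in both libraries were Lama3, Lamb3, Lamc3, Acan, Matn1, Matn3, Aspn and Omd. Another 4 genes, Tnc, Hapln1, Matn4 and Fmod, reached 1 FPKM in 1 library only, so a gene such as Matn4 was counted through the library in which it was high. Without the filter, 8 of the 45 genes were lower, Lamc3 being added, and 4 were higher, beside 2.16% and 1.13% of all 55401 genes. The plot of levels by gene shows every value.

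**Figure D1:**
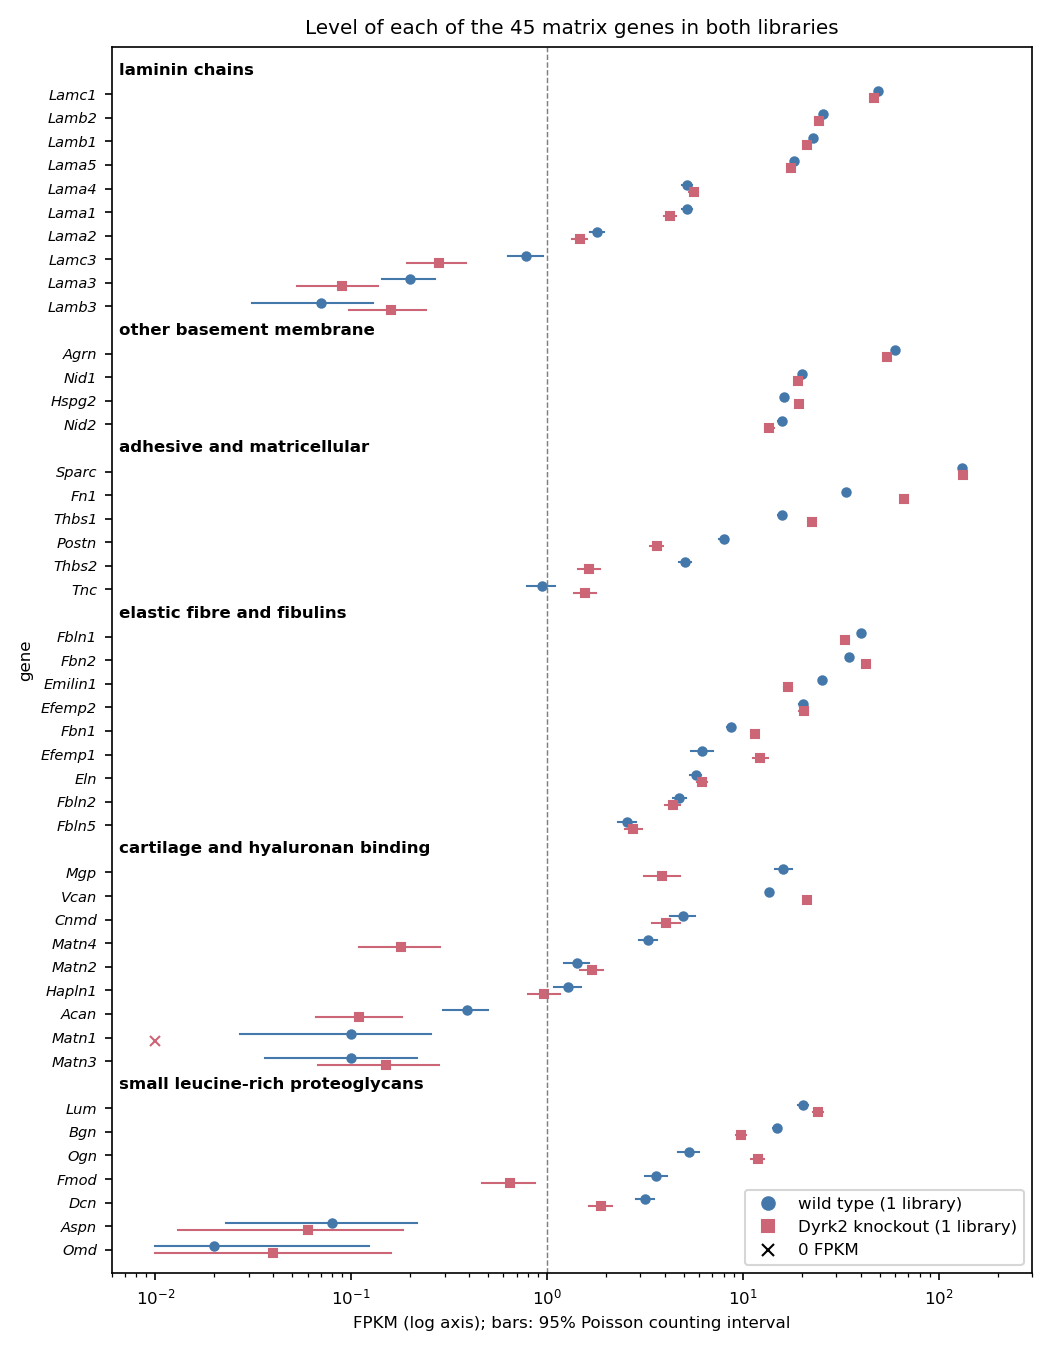
FPKM of each of the 45 matrix genes on a log axis, grouped by role, with circles for the wild-type library, squares for the knockout library and bars for 95% Poisson counting intervals (drawn down to 0.01 FPKM). The laminin symbols lie close together down to Lama2, while those of Matn4, Mgp and Fmod stand far apart, and Matn1 is at 0 FPKM in the knockout library.

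The libraries hold 20044936 and 20115765 counted fragments (wild type and knockout, in that order here and for every pair of values below). On a 1 kb gene, 1 fragment equals 0.0499 and 0.0497 FPKM. The 95% intervals given with values are exact and include counting error alone, so embryo and dissection differences stand outside them. Dyrk2 itself was at 11.5 and 1.93 FPKM, 5.97-fold lower in the library labelled knockout (interval 5.20 to 6.86). All 11 pouch markers passed the filter. Of them 10 (90.9%) lay within 1.5-fold, near the 93.4% of all 14000 genes. They were led by Pitx1, a pituitary homeobox factor, at 250 and 227 FPKM and the epithelial adhesion gene Epcam at 195 and 193 FPKM. Lhx4 was the furthest from equality at 8.61 and 5.52 FPKM. Transcripts of both sexes were present in both libraries in different proportions, with Xist, expressed from the inactive X chromosome, at 75 and 14.8 FPKM and the Y-linked gene Ddx3y at 5.83 and 14.9 FPKM.

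Several tissue markers differed beside the matrix genes. Of 16 mesenchyme markers, all of at least 1 FPKM in a library, 7 were lower and 1 higher, with a median log2 ratio of -0.57. Over all 14000 genes 4.57% were lower and 2.07% higher, the shares that stand beside every list in this paragraph. The mesenchyme markers had a summed level of 277 and 169 FPKM, and the regulator Tcf21 was at 1.61 FPKM and 0. Log2 ratios were above 0 for 4 of the 16. Prrx1, the 1 higher gene, measured 0.83 and 1.67 FPKM, and Snai2 3.36 and 4.5 FPKM. In that list the collagen genes Col3a1 (91.7 and 62.1 FPKM) and Col1a2 (34.9 and 26.7 FPKM) had the highest mean of both libraries. Col1a1, named here after its value was seen, measured 42.7 and 16.2 FPKM, 2.64-fold lower (2.51 to 2.78). Foxf2, a forkhead factor, was furthest from equality on the log2 ratio with 0.5 FPKM added, at 15.3 and 2.78 FPKM, although the 76 and 0 fragments of Tcf21 differ more as a plain ratio. Of 11 pericyte and smooth muscle markers, 8 passed the filter, 4 of them lower and none higher, with a median of -0.60 and a sum of 123 and 76.1 FPKM; the actin gene Acta2 measured 25.6 and 1.58 FPKM and the receptor gene Notch3 48.1 and 48.0 FPKM. Cartilage markers stayed closer, with 1 of the 8 that passed lower, a median of -0.09 and a sum of 255 and 221 FPKM. Their most expressed genes, the collagen genes Col2a1 (141 and 121 FPKM) and Col9a2 (67.8 and 56.5 FPKM), were within 1.5-fold, Col9a3 was lower at 5.21 and 2.66 FPKM, and Snorc was at 0 in both libraries. All 15 endothelial markers lay within 1.5-fold, as did 93.4% of the 14000 genes, and their median was 0.09. Medians were -0.09 for hypothalamus and infundibulum, 0.23 for neurons, -0.21 for glia and -0.21 for macrophages, and in each of these lists at most 1 gene passed 1.5-fold. The neuron list was mixed, with 5 of the 8 genes that passed the filter above 0 and 3 below. Its sum was lower in the knockout library, at 108 and 89.1 FPKM. In bulk tissue, fewer cells of a type and less RNA per cell cannot be told apart, and the part of tissue makeup in the matrix differences below was not tested.

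Of the 10 laminin chains, 7 passed the filter and all 7 lay within 1.5-fold, as did 93.4% of the 14000 genes. Their log2 ratios ran from -0.26 to 0.10, and 6 of the 7 were below 0, beside 7512 of the 14000 genes. Some lay very close to 0, such as Lamc1 at -0.056, which became -0.026 after rescaling by a trimmed mean. Lamc1, the gamma chain shared by most laminins, was the most abundant at 48.9 and 47.0 FPKM. Its usual partners followed, the beta chains Lamb2 at 25.8 and 24.5 FPKM and Lamb1 at 22.8 and 21.2 FPKM. The main alpha chain was Lama5, the chain of the epithelial laminins, at 18.3 and 17.6 FPKM. Lama1, found in the earliest embryonic basement membranes, measured 5.20 and 4.26 FPKM, 1.22-fold lower with an interval of 1.11 to 1.34. Lama4, a chain typical of vessel walls, measured 5.21 and 5.63 FPKM, and Lama2, typical of muscle and nerve sheaths, 1.8 and 1.47 FPKM.

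The shares of the main chains differed little between the libraries. Lama5 held 59.6% and 60.6% of the summed FPKM of the 5 alpha chains, Lama1 16.9% and 14.6%, and Lama4 16.9% and 19.4%. Of the beta chains, Lamb2 held 52.9% and 53.4%. Per unit length, the beta chains summed to 1.58 and 1.57 times the alpha chains. Weakly expressed chains differed more. Lamc3, a gamma chain, was at 0.78 and 0.28 FPKM, from 95 and 34 fragments, 2.79-fold lower (1.88 to 4.28). Lama3, the alpha chain of an epidermal laminin, was at 0.20 and 0.09 FPKM, and its partner Lamb3 at 0.07 and 0.16 FPKM, so the chains of 1 trimer leaned in opposite directions at very low levels.

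All 4 linkers of the basement membrane passed the filter, and none reached 1.5-fold, where 93.4% of the 14000 genes were within it. Agrn, which encodes the heparan sulfate proteoglycan agrin, was the most abundant at 60.2 and 54.6 FPKM. Nid1 and Nid2, the nidogens that bridge laminin and collagen networks, measured 20.1 and 19.1 FPKM and 15.9 and 13.7 FPKM. Nid2 shares 8.45% of its exon length with Rtraf on the opposite strand, a gene at 70.0 and 72.5 FPKM, and the sources used here do not say whether counting used strand. Hspg2, the perlecan gene, leaned the other way at 16.2 and 19.3 FPKM, 1.19-fold higher (1.14 to 1.23). Of 8 basement membrane collagens listed, 6 passed and all 6 were within 1.5-fold, again near that share of all genes. Their log2 ratios ran from -0.36 to 0.41. Col18a1, the source of endostatin, measured 174 and 135 FPKM, and Col4a1 72.1 and 68.0 FPKM. Col4a6, named here after its value was seen, leaned higher at 1.35 and 1.95 FPKM, a plain ratio of 1.44 (1.21 to 1.73).

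Adhesive and matricellular genes split widely. Fn1 (ENSMUSG00000026193, chromosome 1 from 71585520 to 71653200, minus strand, GRCm38) encodes fibronectin, the fibre protein bound by integrins. It measured 33.6 FPKM (interval 32.9 to 34.4) and 66.5 FPKM (65.4 to 67.5), which is 1.98-fold higher in the knockout library (1.92 to 2.03), and its log2 ratio exceeded that of 99.1% of the 14000 genes. Thbs1, a thrombospondin that blocks vessel growth, leaned the same way at 15.9 and 22.5 FPKM, 1.42-fold higher (1.34 to 1.502) and so short of the 1.5-fold mark. Tnc, the tenascin gene, measured 0.94 and 1.57 FPKM, a plain ratio of 1.67 (1.36 to 2.07) that fell short once 0.5 FPKM was added. Sparc, a collagen-binding matricellular gene and the most expressed of all 45, was level at 131 and 134 FPKM.

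Thbs2 and Postn were lower in the knockout library. Thbs2 (ENSMUSG00000023885, chromosome 17 from 14665500 to 14694235, minus strand), the close relative of Thbs1, measured 5.07 FPKM (4.71 to 5.46) and 1.65 FPKM (1.44 to 1.87), 3.07-fold lower (2.65 to 3.59). Postn (ENSMUSG00000027750, chromosome 3 from 54361109 to 54391037, plus strand), which encodes periostin of connective tissue, measured 7.99 FPKM (7.58 to 8.42) and 3.64 FPKM (3.36 to 3.93), 2.20-fold lower (1.998 to 2.42). The thrombospondins differed in their proportions more than in their sum. Over Thbs1 to Thbs4 and Comp they summed to 34.1 and 32.1 FPKM, of which Thbs1 held 46.6% and 70.0% and Thbs2 14.9% and 5.13%. The ratio of Thbs1 to Thbs2 was 3.14 for wild type and 13.6 for knockout.

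Elastic fibre genes and fibulins held 1 gene past 1.5-fold among 9, all of which passed the filter. Of the 14000 genes 6.64% were past that mark in either direction. Efemp1 (ENSMUSG00000020467, chromosome 11 from 28853204 to 28926743, plus strand), which encodes fibulin-3, measured 6.20 FPKM (5.46 to 7.01) and 12.3 FPKM (11.2 to 13.4), 1.98-fold higher (1.70 to 2.32). Fbn2 and Fbn1, the fibrillins of embryonic and later microfibrils, were 1.22-fold (1.19 to 1.26) and 1.32-fold higher (1.25 to 1.40), at 34.7 and 42.4 FPKM and at 8.71 and 11.5 FPKM. Fbn2 held 79.9% and 78.6% of their sum, so the embryonic form led in both libraries. Emilin1, a glycoprotein of elastic fibres and vessel walls, lay at the border on the lower side with 25.5 and 17.0 FPKM, 1.504-fold lower as a plain ratio (1.41 to 1.60) and just under 1.5-fold once 0.5 FPKM was added.

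The remaining fibulins were near level. Fbln1, the most abundant, measured 40.2 and 33.5 FPKM, 1.20-fold lower (1.14 to 1.26). Efemp2, needed for elastic fibre assembly, measured 20.3 and 20.5 FPKM, Fbln2 4.75 and 4.38 FPKM, and Fbln5 2.56 and 2.76 FPKM. Eln, the elastin gene, measured 5.77 and 6.19 FPKM. The 5 fibulins summed to 74.0 and 73.4 FPKM, within which Efemp1 held 8.38% and 16.8% and Fbln1 54.3% and 45.6%.

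Cartilage and hyaluronan-binding genes held the widest differences. Matn4 (ENSMUSG00000016995, chromosome 2 from 164389393 to 164405160, minus strand), a matrilin that bridges matrix filaments, measured 3.30 FPKM (2.96 to 3.67) from 342 fragments and 0.18 FPKM (0.110 to 0.285) from 19 fragments. It was 18.3-fold lower in the knockout library (11.4 to 30.4), and 0.157% of the 14000 genes had a lower log2 ratio. Rbpjl, which overlaps 2.88% of the exon length of Matn4 on the opposite strand, was at 0.04 FPKM and 0. Mgp (ENSMUSG00000030218, chromosome 6 from 136872435 to 136875823, minus strand) encodes matrix Gla protein, an inhibitor of calcification made by cartilage and vessel wall cells. It measured 16.1 FPKM (14.6 to 17.8) and 3.89 FPKM (3.14 to 4.77), 4.15-fold lower (3.30 to 5.25).

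Vcan went the other way. It lies on chromosome 13 from 89655312 to 89742509, minus strand (ENSMUSG00000021614), and encodes versican, the large hyaluronan-binding proteoglycan of loose embryonic mesenchyme. It measured 13.6 FPKM (13.2 to 14.1) and 21.3 FPKM (20.8 to 21.9), 1.57-fold higher (1.504 to 1.63). Hapln1, the link protein that fastens such proteoglycans to hyaluronan, measured 1.28 and 0.97 FPKM, and its interval of 1.03-fold to 1.69-fold lower spans small and moderate differences. Cnmd, the chondromodulin gene of avascular cartilage, measured 4.93 and 4.07 FPKM with an interval that includes equality, from 0.969-fold to 1.51-fold lower. Acan, the aggrecan gene of mature cartilage, was at 0.39 and 0.11 FPKM, from 58 and 17 fragments.

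The other matrilins were weak. Matn2 measured 1.42 and 1.69 FPKM, Matn3 0.10 and 0.15 FPKM, and Matn1 0.10 FPKM (4 fragments) and 0, where 3 fragments would equal 0.0745 FPKM. Matn4 held 67.1% of the summed FPKM of the 4 matrilins for wild type and 8.91% for knockout, where Matn2 held 83.7%. The matrilins summed to 4.92 and 2.02 FPKM.

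Small leucine-rich proteoglycans, which bind collagen fibrils and growth factors, kept their sum while their makeup differed. The 7 genes summed to 47.5 and 48.5 FPKM. Of them 5 passed the filter, 3 lower and 1 higher, beside 4.57% and 2.07% of the 14000 genes. Fmod (ENSMUSG00000041559, chromosome 1 from 134037254 to 134048277, plus strand), the fibromodulin gene, measured 3.61 FPKM (3.16 to 4.09) and 0.65 FPKM (0.468 to 0.871), 5.55-fold lower (4.02 to 7.91). Dcn (ENSMUSG00000019929, chromosome 10 from 97479609 to 97518143, plus strand), the decorin gene, measured 3.18 FPKM (2.86 to 3.52) and 1.88 FPKM (1.64 to 2.15), 1.69-fold lower (1.43 to 2.004). Bgn, the biglycan gene and the closest relative of Dcn here, measured 14.9 FPKM (14.3 to 15.7) and 9.79 FPKM (9.24 to 10.4), 1.53-fold lower (1.42 to 1.64).

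Bgn sits at the threshold. Its log2 ratio of -0.59 became -0.56 when the knockout values were rescaled by a trimmed mean, and it was then no longer counted as lower. It is the only X-linked gene among the 45 (ENSMUSG00000031375, from 73483602 to 73495933, plus strand), and the libraries differ in their mixture of sexes. The median log2 ratio of 520 X-linked genes was -0.01, against -0.02 for 13443 autosomal genes.

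Ogn (ENSMUSG00000021390, chromosome 13 from 49608046 to 49624501, plus strand), which encodes osteoglycin or mimecan, was the highest ratio among the 37 genes. It measured 5.31 FPKM (4.70 to 5.98) and 11.9 FPKM (10.99 to 12.9), 2.24-fold higher (1.94 to 2.60). Lum, the lumican gene and the most abundant of this family, was 1.19-fold higher (1.10 to 1.299) at 20.3 and 24.2 FPKM. Lum and Fmod encode close relatives with the same fibril partner, and their levels stood at a ratio of 5.62 for wild type and 37.2 for knockout. Within the family, Ogn held 11.2% and 24.5%, Bgn 31.5% and 20.2% and Fmod 7.61% and 1.34%.

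Several of these genes lie in clusters, where most neighbours stayed under 1 FPKM in both libraries. Ogn shares a span of 120 kb with Omd, Aspn and Ecm2 on chromosome 13. There Omd was at 0.02 and 0.04 FPKM, Aspn at 0.08 and 0.06 FPKM and Ecm2 at 0.39 and 0.17 FPKM. Ecm2 was 2.29-fold lower (1.33 to 4.21), from 44 and 19 fragments. Of these 4 genes only Ogn exceeded 1 FPKM, and Omd and Aspn rest on 4 fragments or fewer in each library. Lum and Dcn lie within 203 kb on chromosome 10 together with Kera and Epyc. In that cluster Dcn was lower and Lum slightly higher. Kera was at 0.53 and 0.39 FPKM, from 24 and 18 fragments, with an interval that includes equality. Epyc was at 0.08 and 0.60 FPKM, from 4 and 31 fragments, 7.5-fold higher with a wide interval (2.73 to 30.1). Prelp, the neighbour of Fmod on chromosome 1, measured 0.51 and 0.34 FPKM from 37 and 25 fragments, and its interval also includes equality.

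**Figure D2:**
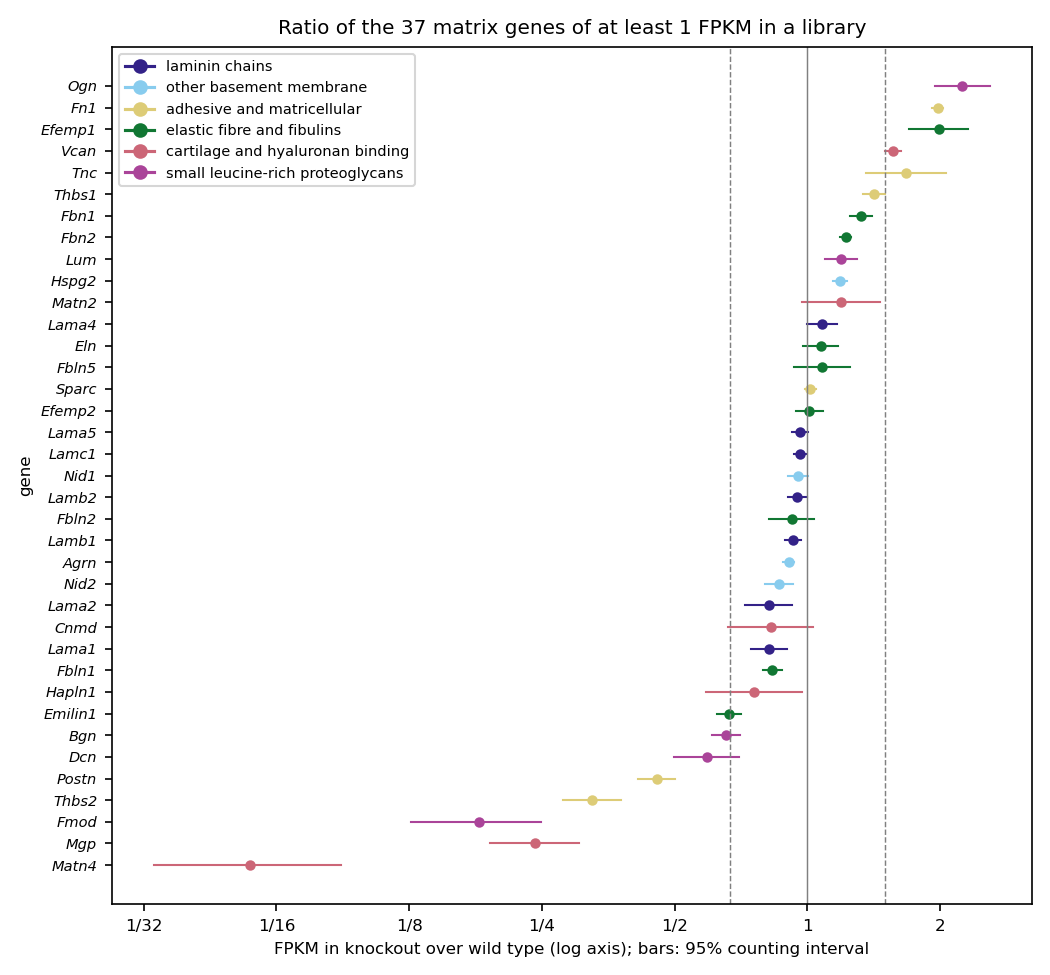
Ratio of knockout over wild-type FPKM on a log axis for the 37 matrix genes that reached 1 FPKM, in the order of their log2 ratio with 0.5 FPKM added, with 95% counting intervals and dashed lines at 1.5-fold. The intervals of 5 genes lie wholly below the lower line (Postn, Thbs2, Fmod, Mgp and Matn4) and those of 4 wholly above the upper line (Vcan, Efemp1, Fn1 and Ogn). All 11 laminin and other basement membrane genes have a log2 ratio within the lines. Of these, 9 are below 0, beside 7512 of the 14000 genes.

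The genes were also counted by stricter rules. The 95% counting interval of the plain ratio lay wholly beyond 1.5-fold for 5 lower and 4 higher genes of the 37, beside 1.83% and 0.664% of the 14000. At 2-fold with 0.5 FPKM added, 5 genes were lower and 1, Ogn, was higher, beside 1.89% and 0.857%. Fn1 and Efemp1 came just short of that mark. Among genes that reached 5 FPKM in either library, 4 of 27 were lower by 1.5-fold and 4 were higher, beside 1.97% and 0.664% of 9037 genes.

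**Figure D3:**
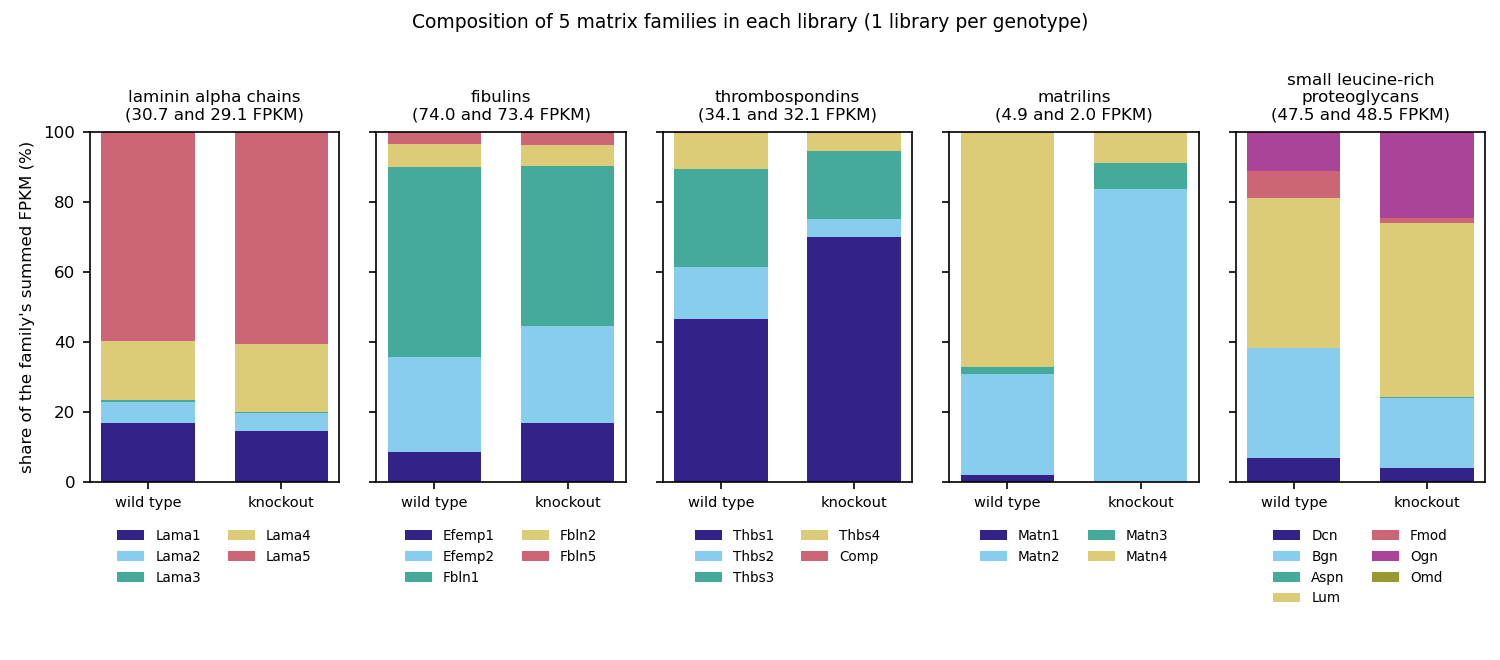
Share of each gene in the summed FPKM of its family, in percent, for 5 families, with 1 bar per library and the sums in FPKM above each panel. The bars of the alpha laminins are alike in both libraries, whereas Thbs1 takes 46.6% and 70.0%, Matn4 67.1% and 8.91% and Ogn 11.2% and 24.5%.

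Promoter sequence is shown for those genes past 1.5-fold whose upstream window held a match to a searched motif other than the E-box. RefSeq windows (GRCm38.p6) were matched for 31 of the 45 genes, and the 250 bases before the start were searched on both strands. The 4 sequences below run 5′ to 3′ in the direction of the gene, with matches in capitals.
Ogn promoter, chr13:49607765-49608014, plus strand: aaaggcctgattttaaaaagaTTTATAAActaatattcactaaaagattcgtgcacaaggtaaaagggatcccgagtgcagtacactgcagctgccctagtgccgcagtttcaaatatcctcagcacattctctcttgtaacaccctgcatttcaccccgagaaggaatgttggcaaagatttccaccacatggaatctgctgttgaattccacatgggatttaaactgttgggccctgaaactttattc
Efemp1 promoter, chr11:28852955-28853204, plus strand: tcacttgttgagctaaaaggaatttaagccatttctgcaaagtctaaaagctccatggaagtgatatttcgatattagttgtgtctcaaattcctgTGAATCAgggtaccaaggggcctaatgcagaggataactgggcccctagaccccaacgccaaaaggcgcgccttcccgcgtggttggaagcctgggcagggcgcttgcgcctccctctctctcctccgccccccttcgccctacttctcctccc
Thbs2 promoter, chr17:14694263-14694512, minus strand: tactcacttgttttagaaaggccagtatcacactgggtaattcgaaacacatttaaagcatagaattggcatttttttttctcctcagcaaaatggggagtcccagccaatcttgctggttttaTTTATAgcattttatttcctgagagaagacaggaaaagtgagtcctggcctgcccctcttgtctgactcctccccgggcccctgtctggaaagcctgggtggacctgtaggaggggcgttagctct
Postn promoter, chr3:54360857-54361106, plus strand: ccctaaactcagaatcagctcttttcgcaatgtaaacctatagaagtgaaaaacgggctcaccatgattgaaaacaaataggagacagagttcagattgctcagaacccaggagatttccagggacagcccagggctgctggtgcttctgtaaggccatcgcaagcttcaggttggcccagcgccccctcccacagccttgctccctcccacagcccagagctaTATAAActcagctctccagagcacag
In Postn the capitals mark TATAAA, the letters of the TATA box, beginning 26 bases before the start. In Thbs2 the same letters lie on the opposite strand, 126 bases before the start. In Ogn a pair of overlapping TATAAA matches, 1 on each strand, begins 229 and 227 bases before the start. In Efemp1 the capitals mark TGAATCA, 154 bases before the start. It matches TGANTCA, the loose AP-1 pattern searched, in which N accepts any base. TATAAA was present in 5 of the 31 windows (16.1%) and in 12.4% of 32851 RefSeq windows of the same length, and TGANTCA in 1 (3.23%) and 6.75%. Letters of the forkhead motif TGTTTAC, the Gli motif GACCACCCA and the cAMP response element TGACGTCA were in none of the 31 windows, and in 3.17%, 0.225% and 1.55% of all windows. The E-box CANNTG, left in lower case, was in 22 of the 31 (71.0%) and in 66.2% of all. A match is a run of letters in this window and not a tested site.

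Of 31 receptors for these proteins listed, 28 passed the filter, 5 (17.9%) were lower and none was higher, beside 4.57% and 2.07% of the 14000 genes. Integrin alpha chains made up 4 of the 5. Itga8, the nephronectin and fibronectin receptor chain of mesenchyme, measured 3.77 and 1.24 FPKM, 3.04-fold lower (2.57 to 3.61). Itga11, a collagen receptor chain of fibroblasts, measured 3.24 and 1.13 FPKM, 2.87-fold lower (2.31 to 3.56). Itga1, which also binds collagen and laminin, measured 1.39 and 0.56 FPKM, 2.48-fold lower (2.10 to 2.92). Itga4, a fibronectin receptor chain, measured 4.0 and 1.84 FPKM, 2.17-fold lower (1.96 to 2.42). The fifth, Itgb5, named here after its value was seen, measured 26.3 and 15.6 FPKM. The common beta chain Itgb1, at 122 and 118 FPKM, and the collagen receptor kinase Ddr1, at 57.8 and 52.3 FPKM, were the most expressed and within 1.5-fold.

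Of 48 genes listed for assembly and turnover of matrix, 38 passed the filter, 4 (10.5%) were lower and none was higher. Over the 14000 genes the shares were 4.57% and 2.07%. Timp3, a protease inhibitor that stays bound to the matrix, measured 12.3 and 6.60 FPKM, 1.86-fold lower (1.73 to 2.01). Htra1, a secreted protease, measured 1.52 and 0.36 FPKM, and Mmp9, a gelatinase, 1.17 and 0.10 FPKM from 83 and 7 fragments. Adamts6, a secreted metalloprotease, measured 4.21 and 2.64 FPKM, 1.59-fold lower as a plain ratio (1.41 to 1.81). It was exactly at the 1.5-fold mark once 0.5 FPKM was added. The collagen chaperone Serpinh1, at 332 and 339 FPKM, and the membrane protease Mmp14, at 39.0 and 33.8 FPKM, were the most expressed.

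Other glycoproteins and proteoglycans leaned lower. Of 55 listed, 37 passed the filter, 10 (27.03%) were lower and 2 (5.41%) higher, beside 4.57% and 2.07% of the 14000 genes. Their median log2 ratio was -0.21, against -0.02 for the 14000. Vtn, the vitronectin gene, measured 3.37 and 1.18 FPKM, 2.86-fold lower (2.05 to 4.07). Thbs4, at 3.49 and 1.59 FPKM, and the testican gene Spock1, at 1.84 and 0.77 FPKM, were also lower. The 2 higher genes were Smoc2, a relative of Sparc, at 0.60 and 1.36 FPKM, and Fras1, at 5.95 and 9.59 FPKM. Fras1 encodes an epithelial basement membrane protein but is not among the 11 basement membrane genes counted above. Nor are other genes of this list whose proteins are found in basement membranes, Smoc2 among them. Of these, Egflam, at 5.25 and 2.99 FPKM, and Smoc1, at 3.3 and 2.02 FPKM, were lower. Frem2, at 22.2 and 33.4 FPKM, was just under 1.5-fold once 0.5 FPKM was added. Frem1, at 6.87 and 6.41 FPKM, was within 1.5-fold. Fras1, Egflam, Smoc1, Frem2 and Frem1 were named after their values were seen. The most expressed, the glypican gene Gpc3 at 267 and 206 FPKM and the microfibril gene Mfap2 at 163 and 154 FPKM, lay within 1.5-fold.

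**Figure D4:**
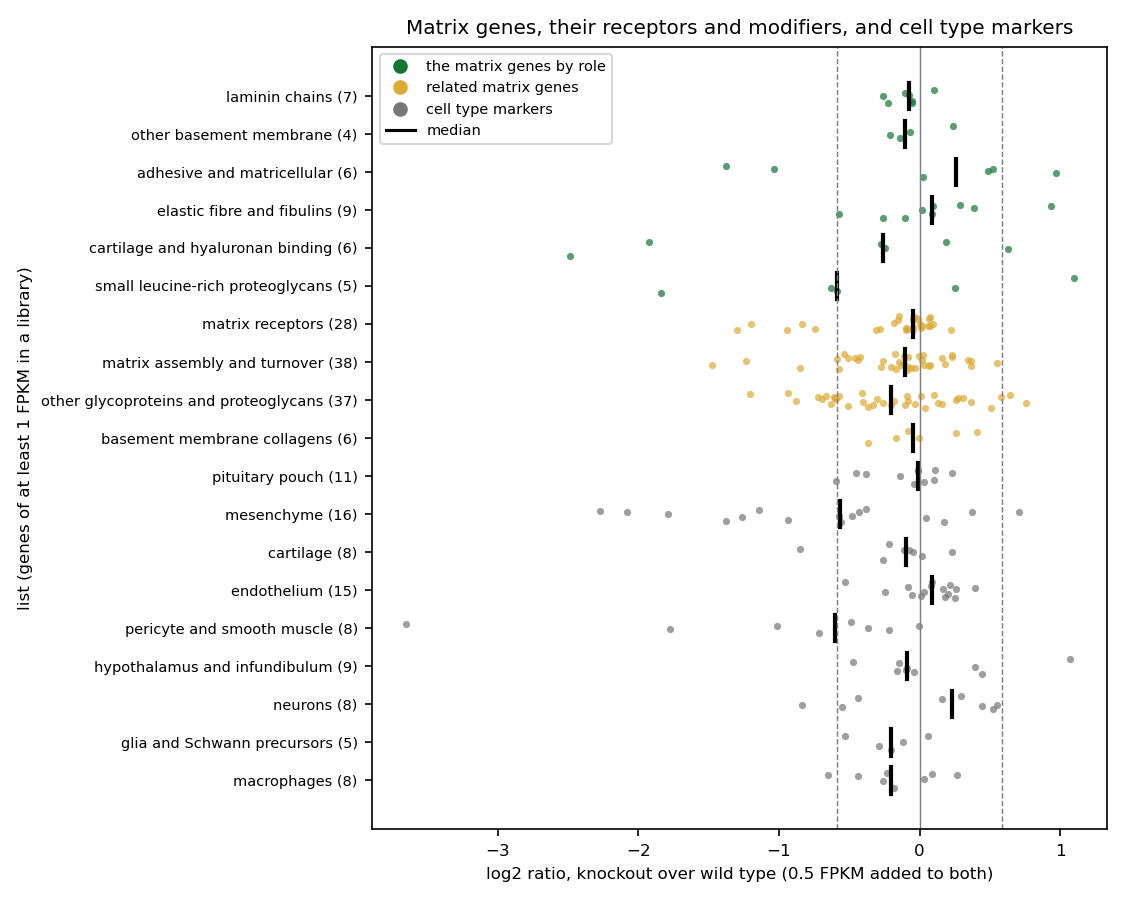
Log2 ratio of knockout over wild type, with 0.5 FPKM added to both values, for genes that reached 1 FPKM in either library, with 1 point per gene, a black line at each median and dashed lines at 1.5-fold. All genes of the laminin, other basement membrane and basement membrane collagen lists lie between the dashed lines. The list of other glycoproteins and proteoglycans also holds basement membrane genes. Of these, Fras1 and Smoc2 lie beyond the upper line and Egflam and Smoc1 beyond the lower line. Matrix receptors and the assembly and turnover genes pass 1.5-fold on the lower side only. Elastic fibre genes and fibulins pass it on the upper side only, with 1 gene. The remaining matrix groups have genes past both lines. The medians of mesenchyme (-0.57) and of pericyte and smooth muscle markers (-0.60) lie lowest among the marker lists.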

How the data were processed

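RNA of mouse pituitary at embryonic day E12.5 was sequenced by the submitters in 1 wild-type and 1 Dyrk2 knockout library, grouped here by the genotype label. The authors deposited FPKM to 2 decimals with the summed exon length of each gene, per the file headers. The submitters' processing notes name cutadapt 1.9.1, HISAT2 2.0.1 and the build GRCm38; the counting tool, its strand setting and the annotation release are not stated in the sources used here. FPKM times exon length sums to the same total in both tables, so a shift in abundant transcripts can move all other genes.

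Symbols came from GENCODE M21 (GRCm38) by identifier: 55141 of 55401 matched. Where 2 identifiers share a symbol, the one with the higher mean was used. Fragment totals were recovered from the steps of the values: all 1512 and 1372 low values checked were whole within 0.1 fragment. They give exact 95% Poisson intervals of levels and Clopper-Pearson intervals of ratios, which cover counting error only. Ratios in counts and medians had 0.5 FPKM added, which understates the change of weak genes; single folds are plain ratios. No fold was taken where a library had 3 fragments or fewer. The steps were tested on simulated data.

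The genes and the lists were chosen with earlier results of these data known, as were the motifs, and 1 gene first listed with the other glycoproteins and proteoglycans is not reported here. All 45 genes are named; of each related list the text names up to 4 genes past 1.5-fold and the 2 most expressed, and of marker lists that carry a result the 2 most expressed by the mean of both libraries and the furthest from equality on the log2 ratio. Col1a1, Tcf21, Prrx1, Snai2, Snorc, Col4a6, Itgb5, Fras1, Egflam, Smoc1, Frem2 and Frem1 were named beyond that rule after their values were seen. Ecm2, Kera, Epyc and Prelp were named as neighbours in gene clusters, and Thbs3 and Comp as thrombospondins. The analysis used Python 3.11.15 with numpy 2.4.6, pandas 2.3.3, scipy 1.17.1 and matplotlib 3.10.9. Alternatives were other pseudocounts, filters, scalings and call rules.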

Additional observations from a re-analysis of the deposited data

How the results depend on the processing

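The counts of 7 lower and 4 higher genes stayed within 1.5 times under most settings run. With a filter of 5 FPKM, which leaves 27 of the 45 genes, 4 were lower, and with a 2-fold threshold 1 was higher. Adding 0.1 FPKM gave 8 lower and 5 higher, with Emilin1 and Tnc added, and adding 2 FPKM gave 5 and 3, without Bgn, Dcn and Vcan. Scaling by a trimmed mean or to an equal upper quartile multiplied the knockout values by 1.02 and left 6 lower, without Bgn, and 4 higher. The median log2 ratio ran from -0.07 to -0.04. No gene changed direction under the pseudocounts and scalings run. Group medians rest on few genes: that of the small leucine-rich proteoglycans was -0.59 over 5 genes, 0.25 with a filter of 5 FPKM and -0.05 with none. The size of the Matn4 ratio depends on the addition, with log2 values of -3.60 and -1.28 at 0.1 and 2 FPKM. No paired analysis was possible because each genotype has a single library. Genes under 1 FPKM rest on few fragments.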
